A study of Homo sapiens with 2 samples.

Results

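The RB pathway genes described here are 10 cell cycle genes, taken by symbol from the 26485 genes of a deposited count table. They are the pocket protein genes RB1, RBL1 and RBL2, the kinase inhibitor genes CDKN2A and CDKN2C, the kinase genes CDK4 and CDK6, and the D cyclin genes CCND1, CCND2 and CCND3. Total RNA had been sequenced from SK-LMS-1 and SK-UT-1, established human leiomyosarcoma cell lines, each given DMSO as solvent, with 1 library per line. The series belongs to work on combined inhibition of SUV39H2 and poly(ADP-ribose) polymerase in this tumour of smooth muscle. The comparison made here is between the lines under solvent alone. No other genotype or treatment enters it. Because each line has 1 library, line and library cannot be told apart.

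The RB pathway decides whether a cell leaves G1 and copies its DNA. D cyclins bind CDK4 or CDK6, and the active kinases phosphorylate the pocket proteins, which then release E2F transcription factors. INK4 inhibitors bind CDK4 and CDK6 and block them. RB1 and CDKN2A are tumour suppressor genes that are often altered in leiomyosarcoma, and RB1 is known to recruit chromatin enzymes, SUV39H1 among them, to E2F target genes.

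All 10 genes were measured in these libraries, by a rule of 1 CPM (a count scaled to library size) or more in the higher library. The lines differed most in 3 of them: CDK6 (25.7-fold) and RB1 (17.9-fold) favoured SK-LMS-1, and CDKN2A (11.9-fold) favoured SK-UT-1. RBL1 and CCND1 also passed 2-fold towards SK-LMS-1, while RBL2, CDKN2C, CDK4, CCND2 and CCND3 lay within 2-fold. By that size rule 4 of the 10 genes favoured SK-LMS-1, as did 21.9% of the 14324 measured genes. A single member favoured SK-UT-1 (1 of 10), as did 18.3% of measured genes. With scaling to library totals or to the upper quartile, more genes passed towards SK-UT-1 (3122 and 3072) than towards SK-LMS-1 (2815 and 2855). With so few members, counts of this size describe the 10 genes only. The median log2 ratio (SK-LMS-1 over SK-UT-1) was 0.55 over the 10 and 0.01 over all measured genes. With 1 library per line there is no test and no replicate check, and each difference compares these 2 libraries. In RNA from whole cultures, fewer cells with a transcript and less of it per cell cannot be told apart.

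Library depth was 6906280 counts (SK-LMS-1) and 7635850 counts (SK-UT-1). CPM values carry edgeR's TMM scaling. Ranges in parentheses after a fold are exact 95% intervals that cover counting error only. Of 9 smooth muscle marker genes 7 were measured, with summed levels of 1049 CPM (SK-LMS-1) and 519 CPM (SK-UT-1). CALD1, the actin-binding protein caldesmon, was the highest at 749 and 343 CPM. SMTN (216 and 109 CPM), TAGLN (61.8 and 5.34 CPM) and CNN1 (9.77 and 2.48 CPM) also had the higher level in SK-LMS-1, while ACTA2 (10.5 and 54.0 CPM) and DES (0.153 and 3.23 CPM) had it in SK-UT-1. LMOD1 had 4 and 10 counts, MYH11 had 5 and 2, and MYOCD, a transcriptional coactivator of the smooth muscle programme, had 0 in both. Endothelial markers summed to 1.53 CPM in SK-LMS-1, led by PECAM1 at 1.22 CPM, and to 0 CPM in SK-UT-1, with VWF and KDR at 0 counts in both. PTPRC, the defining leukocyte gene, had 0 counts in both libraries. Of the other immune markers, CD68, a lysosomal gene also expressed outside the immune system, had 91.9 and 14.5 CPM. Epithelial markers summed to 26.4 and 37.0 CPM, with KRT19 highest in SK-UT-1 at 19.3 CPM, KRT8 highest in SK-LMS-1 at 16.3 CPM and KRT5 at 0 counts in both. Of 5 abundant transcripts kept as signs of RNA quality, MALAT1, a nuclear RNA, was 2.11-fold towards SK-UT-1 (2.08 to 2.15) and RN7SK, a small nuclear RNA, 2.15-fold towards SK-LMS-1 (2.13 to 2.18). NEAT1, ACTB and GAPDH lay within 2-fold. The part of these differences in the results was not tested.

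Start regions of the members were read from the RefSeq promoter table (GRCh38.p14), which held entries for 8 of the 10 genes. Entries for CCND1 and CCND2 were missing. The single RB1 entry lies at a start inside the gene and is not shown. CDKN2A is shown because it has a pair of starts that make different proteins, ARF from the upstream start and p16 from the downstream one, while the deposited count is a single value for the gene. RBL1 is shown because its window alone, of those searched, held an E2F-type motif in the 250 bases before the start. The motif was searched as TTTCCCGC, TTTCGCGC, TTTGCCGC or TTTGGCGC on both strands, and capitals mark its matches. All lie on the minus strand and run 5′ to 3′. The upstream CDKN2A start of RefSeq lies 833 bases outside the gene as the deposited annotation draws it.
CDKN2A upstream start, chr9:21995325-21995574: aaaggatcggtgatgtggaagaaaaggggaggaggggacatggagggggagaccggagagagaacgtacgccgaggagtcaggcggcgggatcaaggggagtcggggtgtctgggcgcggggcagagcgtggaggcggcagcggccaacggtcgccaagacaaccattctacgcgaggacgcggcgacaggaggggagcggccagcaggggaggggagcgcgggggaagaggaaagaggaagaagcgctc
CDKN2A downstream start, chr9:21974858-21975107: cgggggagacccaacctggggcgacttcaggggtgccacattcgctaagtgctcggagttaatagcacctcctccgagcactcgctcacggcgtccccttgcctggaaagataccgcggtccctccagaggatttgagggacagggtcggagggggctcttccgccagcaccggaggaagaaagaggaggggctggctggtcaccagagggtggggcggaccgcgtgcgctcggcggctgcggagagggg
RBL1, chr20:37095998-37096247: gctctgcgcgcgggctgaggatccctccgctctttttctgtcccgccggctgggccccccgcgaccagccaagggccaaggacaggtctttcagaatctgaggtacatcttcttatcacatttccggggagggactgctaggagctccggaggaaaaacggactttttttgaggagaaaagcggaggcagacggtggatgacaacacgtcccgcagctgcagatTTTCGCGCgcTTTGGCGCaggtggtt

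The RBL1 stretch held 2 matches, TTTCGCGC and TTTGGCGC, which begin 26 and 16 bases before the start. Among 35116 windows of the same length in the table, 2.79% held a match and 0.122% held 2 or more. The 15 windows of members include several for 5 of the genes, and 1 of the 15 held a match. They include the RB1 entry inside the gene, so the first start of RB1 was not searched. Others lie away from the exon starts of the deposited annotation, by up to 7950 bases (CDKN2C). The 2 CDKN2A stretches had the same base composition, 66.8% G and C, and held 24 and 20 CpG sites against a median of 11 over all windows. A match or its absence is a description of these letters and says nothing of binding.

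RB1 encodes the retinoblastoma protein, the pocket protein that holds back activating E2F factors. It had 961 counts in SK-LMS-1 against 66 in SK-UT-1. SK-LMS-1 was thus the high library, at 147 against 8.20 CPM, 17.9-fold higher (13.9 to 23.3). Of the 14324 measured genes, 4.21% had a larger ratio towards SK-LMS-1. RB1 spans chromosome 13, 48303747 to 48481890, on the plus strand of hg38, with 27 exon blocks in the deposited annotation. LPAR6, a receptor gene on the opposite strand within the span of RB1, had 7 counts in SK-LMS-1 against 0. With the 0 raised to the floor of 3 counts, LPAR6 was 2.87-fold higher in SK-LMS-1, and its interval begins at a log2 ratio of 0.82. It shares no exonic base with RB1.

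The other pocket proteins were higher in SK-LMS-1 by smaller folds. RBL1 encodes p107, itself an E2F target that binds repressive E2F factors. Its counts were 1100 in SK-LMS-1 against 510 in SK-UT-1, or 168 and 63.4 CPM, 2.65-fold (2.38 to 2.95) higher in SK-LMS-1. RBL2 encodes p130, the pocket protein of the DREAM complex in quiescent cells. It had 905 and 726 counts, or 138 and 90.2 CPM, a 1.53-fold difference towards SK-LMS-1 (1.39 to 1.69) that stays within the 2-fold rule. RBL1 spans chromosome 20, 36996351 to 37096000, on the minus strand, and RBL2 chromosome 16, 53434439 to 53491648, on the plus strand. AKTIP lies on the strand opposite RBL2 and shares 609 exonic bases with it, so the RBL2 value relies on the strand-specific counting.

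**Figure D1:**
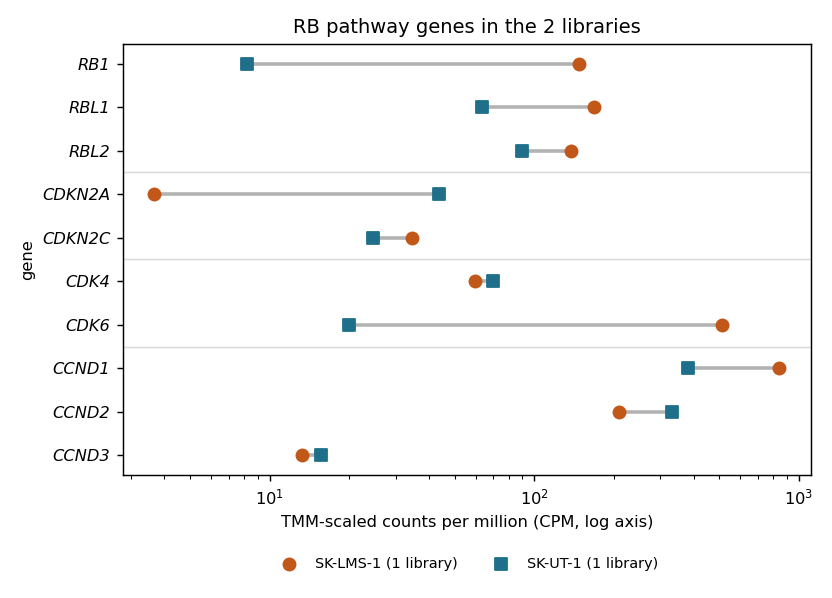
Level of each gene in the SK-LMS-1 library (circles) and the SK-UT-1 library (squares), in TMM-scaled CPM on a log axis. Each point is 1 library and a grey line joins the pair. RB1 and CDK6 have their circles far to the right and CDKN2A its square, while CDK4 and CCND3 have both symbols close together.

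Per kilobase of exon, the make-up of the pocket protein family differed between the libraries. In SK-LMS-1 the 3 genes stood at similar levels of 30.7 (RB1), 28.9 (RBL1) and 28.3 (RBL2) CPM per kb. Neither RBL1 over RB1, at 0.939 (0.861 to 1.03), nor RBL2 over RB1, at 0.920 (0.839 to 1.01), had an interval that excluded equal levels. In SK-UT-1 the order was RBL2 at 18.5, RBL1 at 10.9 and RB1 at 1.72 CPM per kb. RB1 made up 35.0% of the family's counts per kb in SK-LMS-1 against 5.53% in SK-UT-1, and RBL2 32.2% and 59.4%. The ratio of RBL1 to RB1 was 6.75 times higher in SK-UT-1 (5.13 to 8.99), and that of RBL2 to RB1 11.7 times (8.90 to 15.5). These last 2 values compare genes within a library and need no scaling between libraries. Summed over the family, the level was 87.9 CPM per kb in SK-LMS-1 against 31.1 in SK-UT-1.

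CDKN2A encodes p16, an INK4 inhibitor of CDK4 and CDK6, and from its upstream start ARF, which protects p53 from MDM2. It had 24 counts in SK-LMS-1 against 350 in SK-UT-1. SK-UT-1 was the high library, at 43.5 against 3.66 CPM, 11.9-fold higher (7.85 to 18.8). Of measured genes, 2.37% had a larger ratio towards SK-UT-1. The gene runs from 21967752 to 21994491 on chromosome 9, minus strand. Its count joins fragments of p16 and ARF transcripts, and their shares were not analysed here. Its direction was opposite to that of RB1.

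CDKN2C encodes p18, another INK4 inhibitor. With 227 counts in SK-LMS-1 against 198 in SK-UT-1, it stood at 34.6 and 24.6 CPM, 1.41-fold (1.16 to 1.71) higher in SK-LMS-1. It lies on chromosome 1, 50968695 to 50974637, on the plus strand. Per kb, CDKN2C was 7.93 times as abundant as CDKN2A in SK-LMS-1 (5.20 to 12.6), whereas CDKN2A was 2.11 times as abundant as CDKN2C in SK-UT-1 (1.77 to 2.52). CDKN2A therefore held 11.2% of the counts per kb of this pair in SK-LMS-1 against 67.8% in SK-UT-1.

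CDK4 and CDK6 are the kinases that D cyclins activate, and of the pair only CDK6 passed 2-fold between the lines. CDK4 had 392 counts in SK-LMS-1 against 564 in SK-UT-1, or 59.8 and 70.1 CPM. The fold of 1.17 towards SK-UT-1 (1.03 to 1.34) was small. CDK6 had 3352 counts in SK-LMS-1 against 160 in SK-UT-1, or 512 and 19.9 CPM. The difference was 25.7-fold (22.0 to 30.3) towards SK-LMS-1. No other of the 10 genes had a larger fold, and 3.24% of measured genes had a larger ratio in that direction. Per kb, 10.7% of measured genes stood above CDK6 in SK-LMS-1 against 75.3% in SK-UT-1. CDK4 lies on chromosome 12, 57747727 to 57752447, and CDK6 on chromosome 7, 92604921 to 92836627, both on the minus strand. TSPAN31, on the strand opposite CDK4, shares 517 exonic bases with it and had 66 and 17 counts, 4.77-fold (2.77 to 8.67) higher in SK-LMS-1.

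Within SK-LMS-1, CDK6 stood at 43.5 and CDK4 at 29.9 CPM per kb, a ratio of 1.46 (1.31 to 1.62). Within SK-UT-1 the order was turned, with CDK4 at 35.0 and CDK6 at 1.69 CPM per kb, so that CDK4 was 20.7 times as abundant (17.3 to 24.8). CDK6 made up 59.3% of the counts per kb of the pair in SK-LMS-1 against 4.61% in SK-UT-1. The CDK6 to CDK4 ratio differed 30.1 times between the libraries (24.5 to 37.2), a value in which the deposited gene lengths and the scaling cancel. Whether both lines use the same transcript forms of these genes was not examined. The level per kb of CDK6 does depend on length, because 1 exon block of 10366 bases makes up 88.1% of its 11762 exonic bases. The sum of both kinases was 73.4 CPM per kb in SK-LMS-1 against 36.7 in SK-UT-1. CDKN2A stood at 0.0590 of the CDK4 level per kb in SK-LMS-1 (0.0373 to 0.0891) and at 0.598 of it in SK-UT-1 (0.522 to 0.684). Because the CDKN2A count joins p16 and ARF transcripts, these are not ratios of p16 to its target kinase. CDK6, the other target of p16, was not set against it.

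**Figure D2:**
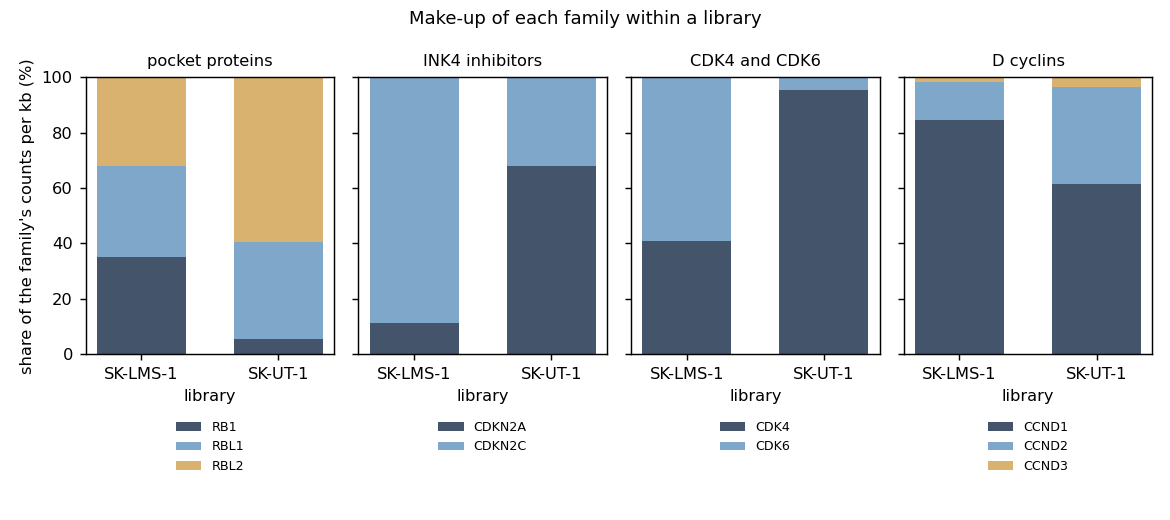
Share of each gene in its family's counts per kilobase of exon (percent, each bar sums to 100), for 4 families in the SK-LMS-1 and SK-UT-1 libraries. RB1 takes 35.0% of the pocket protein bar in SK-LMS-1 against 5.53% in SK-UT-1, and CDK6 takes 59.3% and 4.61% of the kinase bar.

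D cyclins are the growth factor-responsive partners of CDK4 and CDK6. CCND1 had the highest level per kb of the 10 genes in both libraries, with 5534 counts in SK-LMS-1 against 3073 in SK-UT-1. It stood at 845 and 382 CPM, 2.21-fold (2.12 to 2.31) higher in SK-LMS-1. Scaled by library totals, its log2 ratio was 0.99 in place of 1.15, which falls short of the 2-fold rule. Per kb, 1.31% of measured genes in SK-LMS-1 against 3.66% in SK-UT-1 lay above it. CCND2 went the other way, with 1370 and 2660 counts, or 209 and 331 CPM, 1.58-fold (1.48 to 1.69) higher in SK-UT-1. CCND3 was low in both libraries, with 87 and 126 counts, or 13.3 and 15.7 CPM. Its fold of 1.18 towards SK-UT-1 had an interval that includes equal levels (0.890 to 1.57), so no difference was detectable at this depth.

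Both libraries had the same order of D cyclins per kb, with CCND1 above CCND2 above CCND3. The values were 197, 32.1 and 4.20 CPM per kb in SK-LMS-1 and 89.0, 50.7 and 4.95 in SK-UT-1. CCND1 was 6.14 times the CCND2 level in SK-LMS-1 (5.79 to 6.52) against 1.76 times in SK-UT-1 (1.67 to 1.85). The CCND1 to CCND2 ratio was thus 3.50 times higher in SK-LMS-1 (3.23 to 3.79). Levels per kb depend on length here too, as 1 exon block makes up 78.3% of the exonic bases of CCND1 and 84.3% of those of CCND2. In raw counts CCND1 was 4.04 times CCND2 in SK-LMS-1 and 1.16 times in SK-UT-1. CCND2 held 13.7% of the family's counts per kb in SK-LMS-1 against 35.0% in SK-UT-1. The summed level was 233 and 145 CPM per kb. CCND1 lies on chromosome 11, 69641105 to 69654474, and CCND2 on chromosome 12, 4273736 to 4305356, both on the plus strand, and CCND3 on chromosome 6, 41934933 to 42048894, minus strand.

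The genes around each member, those starting within 1 Mb and measured, showed whether a member stood apart from its region. RB1 had 10 such neighbours, with log2 ratios from -0.65 to 1.52 and a median of 0.36, against 4.16 for RB1 itself. The highest of them, LPAR6, has 0 counts in SK-UT-1, so its 1.52 rests on the floor of 3 counts and its place against RB1 cannot be read. RCBTB2, 7.07 kb beyond the end of RB1, had 37 and 39 counts (1.17-fold, 0.723 to 1.88), and ITM2B, 41.7 kb before its start, was 2.16-fold (1.92 to 2.43) higher in SK-LMS-1. None of 13 neighbours reached CDK6 at 4.69, although 6 passed 2-fold towards SK-LMS-1 and 0 towards SK-UT-1 (21.9% and 18.3% of all measured genes). Their median was 0.99. The highest at 4.15 was SAMD9L, named after its values were seen. It was 17.8-fold (13.2 to 24.5) higher in SK-LMS-1, an interval that overlaps that of CDK6 (22.0 to 30.3). FAM133B, 14.5 kb away, had 137 and 206 counts (1.22-fold towards SK-UT-1, 0.981 to 1.53), and SAMD9, 263 kb away on the other side, was 4.45-fold (3.99 to 4.98) higher in SK-LMS-1.

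At CDKN2A the nearest named gene on each side shared its direction with a smaller fold, while other neighbours went the other way. MTAP, a methionine salvage enzyme gene 102 kb away, had 447 counts in SK-LMS-1 against 2142 in SK-UT-1, 3.90-fold (3.52 to 4.33) higher in SK-UT-1. CDKN2B, the neighbouring INK4 gene that encodes p15, had 66 and 191 counts, 2.36-fold (1.77 to 3.17) higher in SK-UT-1. Both were detected in both libraries, as was CDKN2A. Of 8 measured neighbours, 3 passed 2-fold in each direction (21.9% of all measured genes towards SK-LMS-1 and 18.3% towards SK-UT-1). Their log2 ratios ran from -1.96 to 4.54, and none was as low as CDKN2A at -3.57. The highest was HACD4, with 57 counts in SK-LMS-1 against 2, named after its values were seen. At CCND2, 4 of 8 neighbours had a ratio at least as low as that of the gene itself, and TIGAR, 15.8 kb away, was 2.02-fold (1.69 to 2.42) higher in SK-UT-1. At CCND1, ORAOV1, 11.1 kb away, had 105 and 135 counts (1.05-fold towards SK-UT-1, 0.805 to 1.36), while MYEOV, 344 kb away, had 104 and 1 counts, a ratio of 128 towards SK-LMS-1 (22.4 to 5094).

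The remaining members stood within the range of their neighbours. At CDK4, 10 of 33 neighbours had a log2 ratio at or below its -0.23, and at CCND3, 9 of 26 at or below its -0.24. At CDKN2C, 3 of 6 had a ratio at or above its 0.49, among them RNF11, a RING finger protein gene, at 1.99-fold towards SK-LMS-1 (1.82 to 2.17). Around RBL1 and RBL2, 1 of 21 and 1 of 6 neighbours reached the member. For RBL2 that neighbour was AKTIP, which had 171 and 55 counts, 3.82-fold towards SK-LMS-1 (2.80 to 5.27), and overlaps it on the other strand. SAMHD1, a dNTP hydrolase gene 44.5 kb from RBL1, was at 1.09-fold (0.993 to 1.20).

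**Figure D3:**
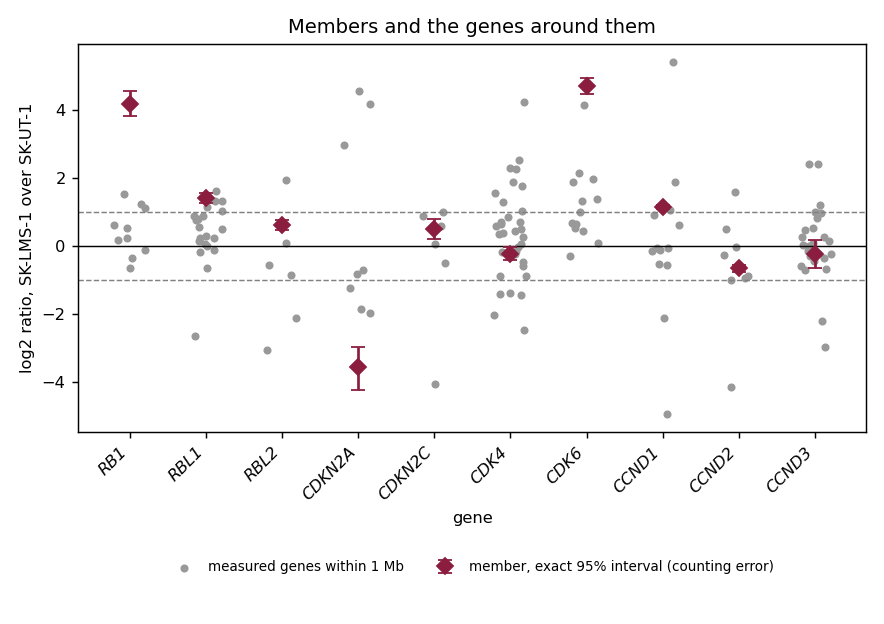
Log2 ratio of SK-LMS-1 over SK-UT-1 for each gene (diamonds, bars are exact 95% intervals for counting error) and for measured genes starting within 1 Mb of it (grey points, counts under 3 raised to 3, spread sideways only for visibility). Dashed lines mark 2-fold. The diamonds of RB1 (4.16), CDK6 (4.69) and CDKN2A (-3.57) lie beyond their grey points, of which the highest near RB1 (LPAR6) rests on that floor of 3 counts. The highest near CDK6 (SAMD9L) has an interval, not drawn, that overlaps that of CDK6.

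Of the other cyclin-dependent kinase inhibitors, CDKN1A was 6.84-fold (4.76 to 10.1) higher in SK-LMS-1. It encodes p21, a p53 target, and had 195 and 35 counts. CDKN1C, which encodes p57, had 2 and 19 counts, a ratio of 7.73 towards SK-UT-1 (1.87 to 68.5), and was named after its values were seen. CDKN2D and CDKN1B, the genes of p19 and p27, lay within 2-fold. With CDKN2B above, 1 of these 5 genes passed 2-fold towards SK-LMS-1 (21.9% of all measured genes) and 2 towards SK-UT-1 (18.3% of all). With a filter at 5 CPM, which leaves out CDKN1C, 1 passed towards SK-UT-1, and by the nearer end of the interval 0 did.

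Of 10 E2F and DP transcription factors, which act downstream of the pocket proteins, 9 lay within 2-fold, as did 59.8% of all measured genes. E2F2, an activating E2F, was 2.91-fold (2.22 to 3.85) higher in SK-UT-1 at 31.1 against 10.7 CPM. E2F1, the best-known activator, stood at 29.3 and 26.1 CPM (1.12-fold towards SK-LMS-1, 0.919 to 1.37), and was named after its values were seen. Of 20 E2F target genes, 19 had a higher value in SK-UT-1 and 1 in SK-LMS-1. Only TK1, thymidine kinase, passed 2-fold, at 2.16-fold (1.86 to 2.53) towards SK-UT-1, where 18.3% of all measured genes passed. The median log2 ratio of the 20 was -0.56, against 0.01 over all measured genes. Intervals of 17 genes towards SK-UT-1 and of 1 gene towards SK-LMS-1 excluded equal levels. That 1 gene was RRM1, a ribonucleotide reductase subunit, named after its values were seen. Such intervals cover counting error only, and those of 9 of the 10 members excluded equal levels too. The share over all measured genes was not computed, so the 17 cannot be set against it. Scaled by library totals or by the upper quartile, 3 of the 20 passed 2-fold, with the deeper library thinned 2 did, and 0 did by the nearer end of their interval. MALAT1 and RN7SK, given above, differed between the libraries as well, and their part in this shift was not tested.

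All 5 genes of the cyclin E and CDK2 module had a higher value in SK-UT-1, with a median log2 ratio of -0.38 against 0.01 over all measured genes. Past 2-fold were 2 of the 5, and 18.3% of all measured genes. CCNE2 (1.21-fold), CCNA2 (1.28-fold) and CDK2 (1.30-fold) differed little and were named after their values were seen. CDC25A, the phosphatase that activates CDK2, was 3.20-fold higher (2.70 to 3.82), at 82.6 against 25.8 CPM. CCNE1, the cyclin E1 gene, stood at 42.2 against 9.61 CPM. In the MuvB, B-MYB and FOXM1 list, whose products act in the DREAM complex or after it, 3 of 7 genes passed 2-fold, all towards SK-UT-1, where 18.3% of all measured genes did. MYBL2, the B-MYB gene, was 3.37-fold (2.96 to 3.85) higher in SK-UT-1, and RBBP4, a histone-binding MuvB subunit, 3.02-fold (2.83 to 3.23). The third was LIN9 at 2.60-fold (2.17 to 3.14), named after its values were seen.

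Genes that control cyclin D and p27 stability went both ways. FBXO4, an F-box protein reported to target cyclin D1, was 6.82-fold higher in SK-LMS-1, with 200 counts (30.5 CPM) against 36 (4.47 CPM). SKP2, the F-box protein that marks p27 for destruction, was 3.73-fold (3.30 to 4.22) higher in SK-UT-1, and FBXO31 was 2.38-fold (1.92 to 2.97) higher in SK-UT-1. AMBRA1, the cyclin D receptor of a CUL4 and DDB1 ligase, stood at 25.0 and 18.4 CPM (1.36-fold towards SK-LMS-1, 1.08 to 1.71), and was likewise named after its values were seen. Of 9 genes, 1 passed 2-fold towards SK-LMS-1 (21.9% of all measured genes) and 3 towards SK-UT-1 (18.3% of all). The third was USP2, a cyclin D1 deubiquitinase gene with 12 and 37 counts, named after its values were seen. By the nearer end of the interval, 1 of the 9 passed towards SK-UT-1, as did 1447 of the 14324 measured genes. The 3 genes of the CDK-activating kinase all lay within 2-fold (median log2 ratio 0.31), as did 59.8% of all measured genes. Of 3 catalytic subunits of protein phosphatase 1, which removes phosphate from RB, PPP1CC was 2.05-fold (1.90 to 2.21) higher in SK-UT-1. PPP1CA and PPP1CB lay within 2-fold, and 18.3% of all measured genes passed 2-fold towards SK-UT-1.

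Of 11 chromatin proteins that act with RB, 10 had a higher value in SK-UT-1, 3 of them past 2-fold, and none passed 2-fold towards SK-LMS-1. The share over all measured genes was 18.3% towards SK-UT-1, so 3 of 11 is not far from it. By the nearer end of the interval 1 of the 11 passed, as did 1447 of the 14324 measured genes. The list's median log2 ratio was -0.58, against 0.01 over all measured genes. SUV39H1, the H3K9 methyltransferase that binds RB, had 88 counts in SK-LMS-1 against 255 in SK-UT-1, 2.36-fold (1.84 to 3.04) higher in SK-UT-1. ARID4B, a relative of the RB-binding protein ARID4A, was 2.28-fold higher in SK-UT-1, at 107 against 46.7 CPM. RBBP7, a histone-binding relative of RBBP4, was the third at 2.06-fold (1.90 to 2.23), named after its values were seen. SUV39H2, the target of the inhibitor in the study's title, had 349 and 453 counts (1.06-fold towards SK-UT-1, 0.917 to 1.22), an interval that includes equal levels. HDAC2, a histone deacetylase, was the 1 gene of the list with a higher value in SK-LMS-1, at 479 against 248 CPM (1.93-fold, 1.82 to 2.04), and was named after its values were seen.

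**Figure D4:**
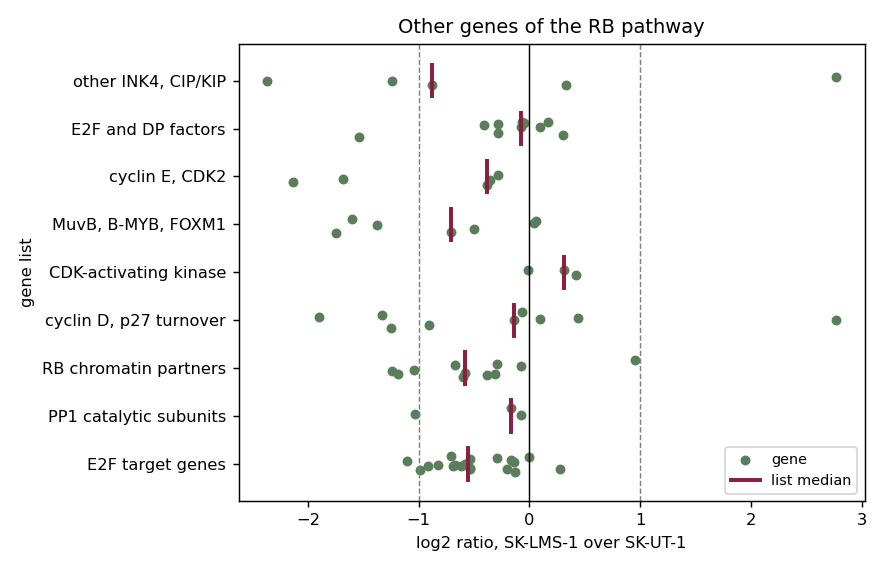
Log2 ratio of SK-LMS-1 over SK-UT-1 for the measured genes of 9 lists around the pathway (points, counts under 3 raised to 3, spread vertically only for visibility), with each list's median as a red bar and dashed lines at 2-fold. The E2F target genes lie between -1.11 and 0.28 with a median of -0.56, and CDKN1A and FBXO4 are the 2 points beyond 2-fold on the SK-LMS-1 side.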

How the data were processed

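Gene-level counts were deposited by the authors, who ran featureCounts 2.0.1 against hg38 and a UCSC annotation, per the file headers. Fragments over exons were counted with strand setting 1, and a fragment over several genes was counted for each. Of the aligner, the sources used here say nothing. The exonic length per gene was used as deposited, and 2 further columns of counts matched neither sample and were not used. CPM used edgeR 4.0.16 TMM library sizes in R 4.3.3. Counts below 3 were raised to 3 for the log2 ratios, medians and size calls, a floor of 0.458 CPM (SK-LMS-1) or 0.373 CPM (SK-UT-1). Intervals are exact conditional binomial (Clopper-Pearson) limits. They take fragments as independent, which amplified reads without molecular identifiers are not. Ratios of ratios used the exact conditional odds ratio.

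The members and lists were chosen with earlier results of these data known. Named genes were the 10 members, up to 2 per list and direction past 2-fold at 5 CPM or more, SUV39H1 and SUV39H2, overlapping or nearest measured neighbours, and the highest gene of each marker list. Not all of the neighbours so chosen are printed. Outside this rule, and chosen after their values were seen, are the remaining marker and RNA quality genes and CDKN1B, CDKN2D, PPP1CA and PPP1CB, beside those marked so in the text. Neighbours listed on several chromosomes or strands were left out. The procedure was tested on simulated data.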

Additional observations from a re-analysis of the deposited data

How the results depend on the processing

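All 10 members kept their direction under each of 5 alternatives (library totals, DESeq2 1.42.0 size factors, upper quartile, a floor of 1 count, thinning of the deeper library), with log2 ratios of 4.01 to 4.16 for RB1, 4.53 to 4.71 for CDK6 and -3.72 to -3.54 for CDKN2A. Library totals and the upper quartile moved the median log2 ratio of all genes by -0.16 and -0.15, and each gene's own ratio by -0.15 and -0.13. Shifts of that size could not turn any member, and the floor could not move one, as the lowest member count was 24. The kept direction of CCND3 is one that its interval does not separate from equal levels. Members past 2-fold towards SK-LMS-1 numbered 4, and 3 with library totals, where CCND1 missed the rule; towards SK-UT-1 they numbered 1 under each alternative. Of all genes, 3140 passed 2-fold towards SK-LMS-1 and 2618 towards SK-UT-1, an order that turned with library totals (2815 and 3122) and the upper quartile (2855 and 3072). Towards SK-UT-1 the count was 1720 with a filter at 5 CPM and 1447 by the interval's nearer end. With library totals and the upper quartile, the list medians moved to -0.29 and -0.27 for cyclin D and p27 turnover and to -0.73 and -0.71 for RB chromatin partners, from -0.14 and -0.58. By the interval's nearer end, SK-UT-1 calls fell from 1 to 0 among E2F targets and protein phosphatase 1 subunits, from 2 to 0 among the other inhibitors, and from 3 to 1 in both the turnover and chromatin lists. No paired analysis was possible because each line has 1 library. Depth limits CCND3 and, with 24 counts in SK-LMS-1, the precision of CDKN2A.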
